A study of Mus musculus with 16 samples.

Results

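The 3 Gadd45 genes (Gadd45a, Gadd45b and Gadd45g) and 7 genes known as targets of p53 (Cdkn1a, Mdm2, Btg2, Ccng1, Trp53inp1, Bbc3 and Polk) were followed through acute hepatitis in mice. The members were all non-control spots that the array design names as one of these genes, which gave 10 genes, 17 probes and 35 spots per array, out of 21332 named genes, 41174 probes and 43379 spots. The genes were chosen by measured values: in livers taken at 5 h, Gadd45a was known to be higher and Polk lower after stem cells. Their values in that contrast are therefore a description, with no test.

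The mice were female C57Bl/6 mice, and each received 300 microgram of concanavalin A, a lectin from jack beans that stimulates T cells and so brings on immune-mediated hepatitis. Some mice also received 100000 adipose tissue derived stem cells through the tail vein, and tissue was taken 2 h after the stem cells. The stem cells had been isolated with collagenase from inguinal fat of C57Bl/6 mice and expanded in culture. The groups were hepatic inflammatory cells at 5 h with stem cells given at 3 h (2 samples) and with concanavalin A alone (2 samples), livers at 5 h with stem cells given at 3 h (3 mice) and with concanavalin A alone (3 mice), and livers at 2 h with stem cells given immediately (3 mice) and with concanavalin A alone (3 mice). For both samples of inflammatory cells without stem cells, the source label mentions stem cells while the treatment and description labels do not, and they were taken as untreated. The labels give neither the age of the mice nor whether the samples of inflammatory cells came from separate mice, so p-values for those cells measure only the spread between these samples, which may be technical. A mouse without concanavalin A was not analysed here.

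Gadd45 proteins are small stress-induced proteins that bind the kinase MAP3K4, cyclin-dependent kinase 1 and PCNA, and so connect stress signals to p38 and JNK signalling, cell cycle arrest and DNA repair. The transcription factor p53 is stabilised by DNA damage and other stress, and turns on genes for arrest, repair and apoptosis, as well as Mdm2, whose product degrades p53 in return. Several of these genes also respond to cytokines and NF-kB without p53. In liver, Gadd45b and Cdkn1a are known from regeneration and injury.

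The 250 bases before the annotated start of transcription are shown for the Gadd45 genes, whose values ran differently across the groups, for Cdkn1a, which had the largest difference between the times, and for Polk, which was lowest in 5 h livers with stem cells. The sequences are from RefSeq (GRCm38.p6) and run 5′ to 3′ in the direction of the gene. Capitals mark matches to the p53 half-site, the CCAAT box (CCAAT) and the TATA box (TATAAA), each searched on both strands.
Gadd45a, chr6:67037408-67037657, minus strand: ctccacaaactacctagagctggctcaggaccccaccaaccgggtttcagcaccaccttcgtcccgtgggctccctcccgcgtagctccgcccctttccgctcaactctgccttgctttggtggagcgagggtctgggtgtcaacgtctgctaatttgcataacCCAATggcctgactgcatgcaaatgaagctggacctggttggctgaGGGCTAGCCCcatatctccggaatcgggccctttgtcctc
Gadd45b, chr10:80929841-80930090, plus strand: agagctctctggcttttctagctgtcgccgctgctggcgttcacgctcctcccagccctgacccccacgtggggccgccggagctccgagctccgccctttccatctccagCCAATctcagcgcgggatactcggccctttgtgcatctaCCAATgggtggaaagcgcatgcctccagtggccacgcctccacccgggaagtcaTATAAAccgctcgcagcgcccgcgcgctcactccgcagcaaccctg
Gadd45g, chr13:51846425-51846674, plus strand: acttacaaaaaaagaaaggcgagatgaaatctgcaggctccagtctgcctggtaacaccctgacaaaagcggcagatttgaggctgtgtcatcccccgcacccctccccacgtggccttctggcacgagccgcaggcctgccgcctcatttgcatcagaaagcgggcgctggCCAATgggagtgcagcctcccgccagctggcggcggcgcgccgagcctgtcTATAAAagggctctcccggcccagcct
Cdkn1a, chr17:29090729-29090978, plus strand: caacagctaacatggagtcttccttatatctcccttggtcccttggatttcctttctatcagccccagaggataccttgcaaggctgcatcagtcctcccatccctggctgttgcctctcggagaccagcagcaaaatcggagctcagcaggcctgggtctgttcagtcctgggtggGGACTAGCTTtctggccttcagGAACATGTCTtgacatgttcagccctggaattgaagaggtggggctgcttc
Polk, chr13:96542580-96542829, minus strand: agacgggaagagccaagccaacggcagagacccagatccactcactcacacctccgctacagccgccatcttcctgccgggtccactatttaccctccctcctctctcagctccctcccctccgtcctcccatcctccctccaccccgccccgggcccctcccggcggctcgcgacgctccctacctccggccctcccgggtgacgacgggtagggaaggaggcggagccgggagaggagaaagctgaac

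Promoters were found for 9 of the 10 genes, at 13 annotated starts, and Trp53inp1 was not matched. The p53 half-site was found at 5 of the 13 starts, against 7.13% of the 32851 starts in the table. These were the starts of Gadd45a, Mdm2 and Ccng1, 1 of 2 starts of Cdkn1a and 1 of 2 starts of Polk. The Polk sequence printed above is the start without a match. The first Cdkn1a start had a pair of half-sites, 73 to 64 and 51 to 42 bases before it. Gadd45b and Gadd45g had a TATA box, as 12.4% of all starts did, and Gadd45a had none in this window. A CCAAT box was found at 7 of the 13 starts, against 33.8% of all starts, and the AP-1 site TGANTCA at 0 of 13, against 6.75%. No match overlapped another. The matches describe letters in these windows and show no binding.

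**Figure D1:**
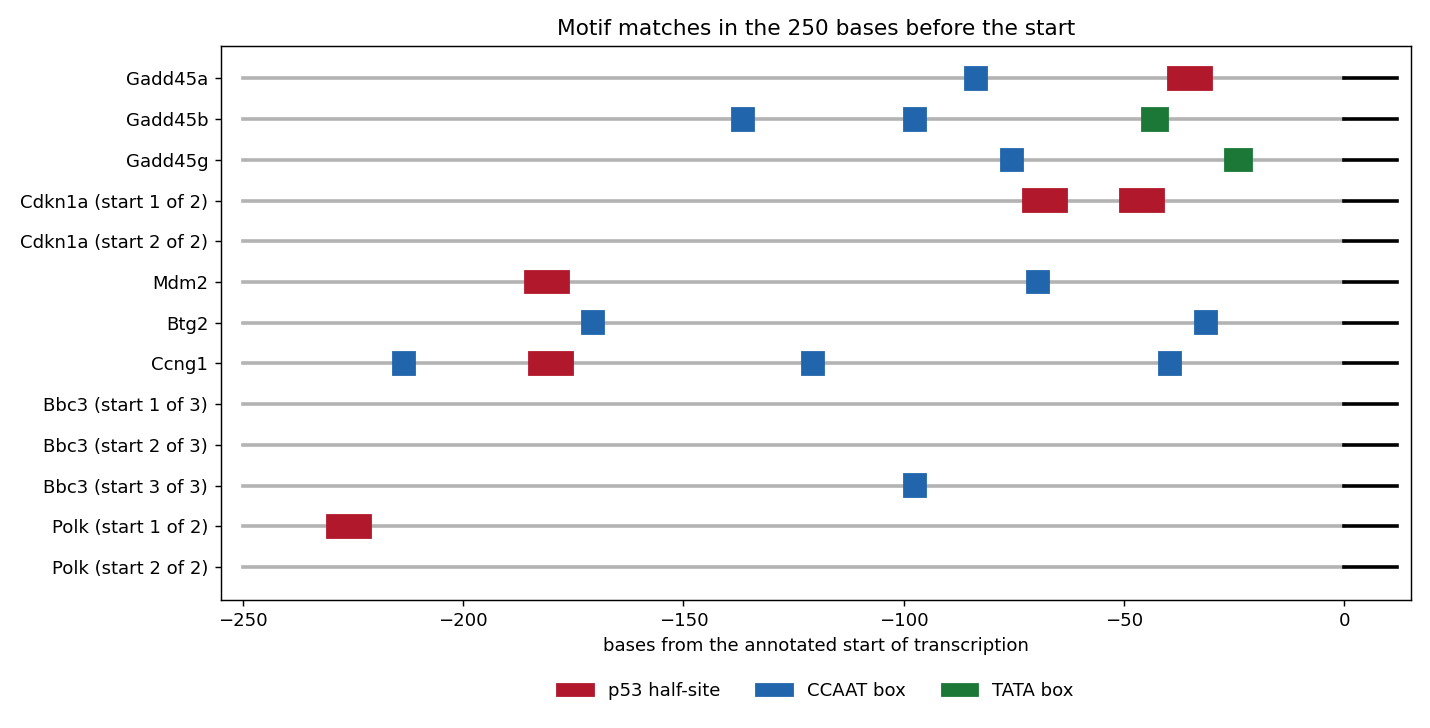
Matches to the p53 half-site, the CCAAT box and the TATA box in the 250 bases before 13 annotated starts of 9 genes, with the distance from the start in bases on the x axis and 1 row per start. Half-sites lie 40 to 31 bases before the Gadd45a start and as a pair before the first Cdkn1a start.

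Every level below is the log2 signal minus the log2 of the same array's 75th percentile, so that 0 is that percentile and 1 unit is a factor of 2. Spots above background were 52.1% to 62.5% of those on an array, and 0 were saturated. Slides 1, 2 and 3 each held 1 array of each liver group, and slide 4 held all 4 arrays of inflammatory cells. Hepatocyte markers (12 of 12) were well above background on every liver array, and leukocyte markers (5 of 5) on every array of inflammatory cells. Inflammatory cells also carried hepatocyte markers, with a summed level of 7.76 to 8.97 with stem cells and 6.96 to 8.11 without, against 12.4 to 13.2 in the livers. In whole liver, fewer cells of a type and less RNA per cell cannot be told apart.

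Among the 2 h livers, liver 10 (with stem cells) and liver 13 (without) stood apart for several of these genes. Gadd45g read 4.78 in liver 10 and 4.85 in liver 13, against 7.68 to 8.13 in the other 2 h livers. Cdkn1a read -1.36 in liver 10 and -1.53 in liver 13. Bbc3 read 2.36 in liver 10 and 2.96 in liver 13, its highest values among the 12 livers. Both livers were thus low for Gadd45g and Cdkn1a and high for Bbc3. The summed neutrophil markers were 5.16 in liver 10 and 3.88 in liver 13, against 6.18 to 6.66 in the other 2 h livers, and the part of these cells in the gene values was not tested.

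**Figure D2:**
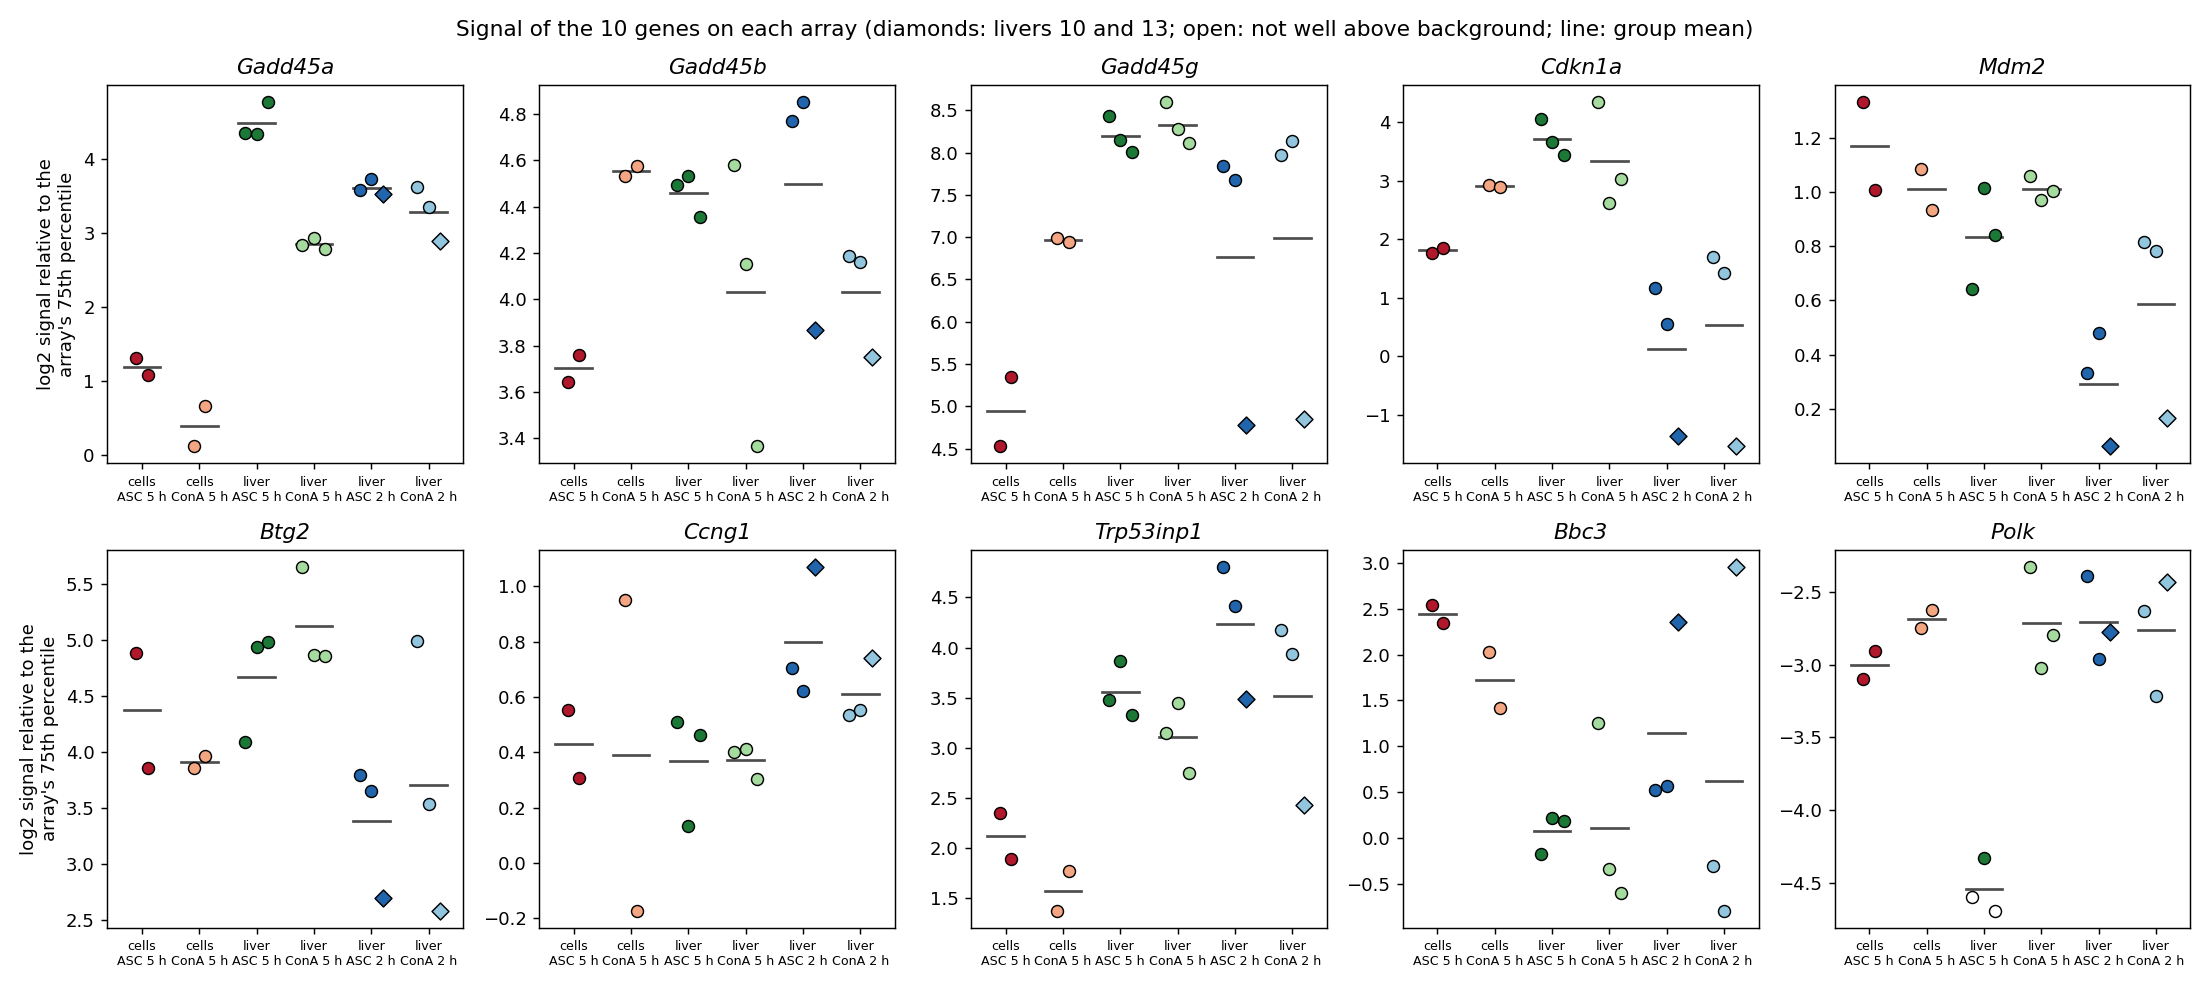
Log2 signal on the scale of the 75th percentile (y axis) for the 10 genes in the 6 groups (ASC, adipose stem cells; ConA, concanavalin A alone), 1 point per sample and a line at the group mean. Gadd45a is highest and Polk lowest in 5 h livers with stem cells, where 2 of 3 Polk points are open (not well above background), and livers 10 and 13 (diamonds) are low for Gadd45g and Cdkn1a and high for Bbc3.

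Groups were compared with limma on all genes, with Benjamini-Hochberg adjustment over all genes tested and a threshold of 0.05. Gadd45a and Polk were chosen by the 5 h livers, so their differences in any comparison that uses those livers are given as a description, with no p, and calls there are counted over the other 8 genes. Stem cells were given immediately in the 2 h livers and at 3 h in the 5 h livers. In livers with stem cells, here and below, time and schedule of the cells therefore cannot be told apart. Between 5 h and 2 h, 1 of the other 8 genes passed in livers with stem cells, where 18.5% of 14650 genes passed. It was Cdkn1a, which rose, as did 8.76% of all genes, and 0 of the 8 fell, against 9.78%. The groups did not overlap for 6 of the 8, against 42.7% of all genes. In livers without stem cells, limma called 0 of the 8 between the times, where 15.7% of all genes passed. Among the 8, 2 had an unadjusted p under 0.05, against 4737 of 14650 genes.

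Immediate stem cells at 2 h gave 0 limma calls among the 10, where 0.0273% of all genes passed. Of the 10, 0 had an unadjusted p under 0.05, against 827 of 14650 genes. Their groups did not overlap for 0 of the 10, against 8.2% of all genes. In inflammatory cells, stem cells gave 0 limma calls among the 10, where 0.014% of 14253 genes passed. Of the 10, 3 had an unadjusted p under 0.05, against 2558 of the 14253. There the groups did not overlap for 7 of the 10, against 52.4% of all genes.

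Inflammatory cells differed from 5 h livers in 3 of the 8 genes in mice with stem cells, where 63.8% of 16314 genes passed. Bbc3 was higher, as were 28.3% of all genes, and Gadd45g and Trp53inp1 were lower, as were 35.5%. In mice without stem cells 1 of the 8 passed, where 61% of all genes did, and this gene, Trp53inp1, was lower, as were 31.7%. Inflammatory cells and livers lay on different slides, so tissue and slide cannot be told apart. In the contrast that chose the genes, stem cells in 5 h livers, 0.0341% of all genes passed and 22.1% did not overlap. On their brightest probes 2 members did not overlap there, Gadd45a and Polk, the ones chosen by it, and nothing is read from that count.

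**Figure D3:**
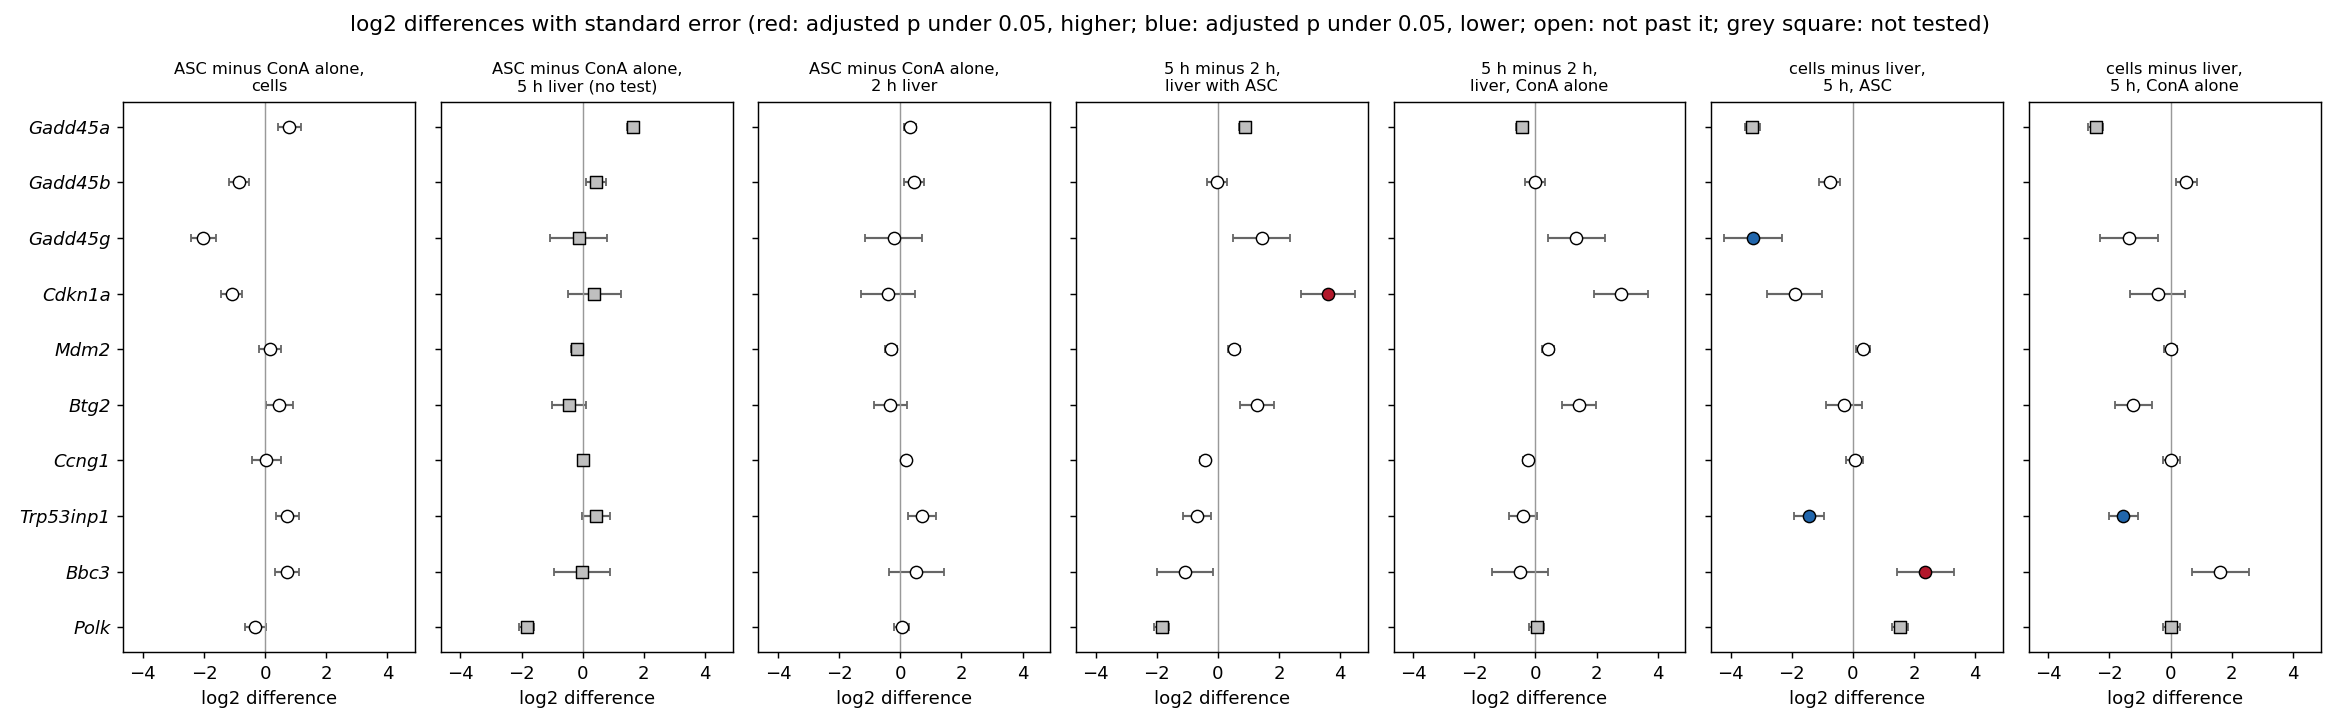
Log2 differences of the 10 genes with their standard errors (x axis), 1 panel per comparison. The highest difference is that of Cdkn1a at 5 h against 2 h with stem cells (3.60) and the lowest that of Gadd45a in inflammatory cells against livers with stem cells (-3.29). Red and blue circles passed an adjusted p of 0.05, open circles did not, and grey squares were not tested, among them Gadd45a and Polk wherever 5 h livers were used.

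Gadd45a, the first of its family known as a p53 target, was higher in 5 h livers with stem cells than in those without. Its probe lies on chromosome 6 (66964960 to 66965019, minus strand, mm8). It read 4.35, 4.33 and 4.77 with stem cells, against 2.83, 2.94 and 2.78 without. The groups did not overlap, and the difference of 1.64 ± 0.19 (SE) is 3.11-fold. Within slides 1, 2 and 3 it was 1.53, 1.83 and 1.55. At 2 h the livers read 3.57, 3.72 and 3.52 with stem cells, against 3.62, 3.34 and 2.89 without. These groups overlapped, and the difference of 0.32 ± 0.19 did not pass (limma adjusted p = 0.864).

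Between the times, Gadd45a was higher at 5 h than at 2 h by 0.88 ± 0.19 in livers with stem cells (1.84-fold), with no overlap. In livers without stem cells the difference was -0.44 ± 0.19, and the groups overlapped. The time differences with and without stem cells had opposite signs. None of these differences was tested, since the 5 h livers chose the gene.

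In inflammatory cells Gadd45a read 1.30 and 1.08 with stem cells, against 0.12 and 0.67 without. The groups did not overlap, and the difference of 0.80 ± 0.38 did not pass (limma adjusted p = 0.325). Against livers, inflammatory cells were lower by 3.29 ± 0.24 on the log2 scale with stem cells, a difference of -3.29 (9.79-fold). The difference without stem cells was -2.45 ± 0.24 (5.48-fold). Neither pair of groups overlapped, and neither difference was tested.

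By group mean (± SD), Gadd45a stood at 4.48 ± 0.24 in 5 h livers with stem cells and at 3.60 ± 0.11 in 2 h livers with stem cells. It stood at 3.28 ± 0.37 in 2 h livers and 2.85 ± 0.08 in 5 h livers without stem cells. In inflammatory cells it stood at 1.19 ± 0.16 with stem cells and 0.39 ± 0.39 without. In this falling order, the neighbours that overlapped were the 2 h livers with and without stem cells, and the 2 h and 5 h livers without.

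Gadd45b, an NF-kB and TGF-beta target that restrains JNK signalling, passed in no tested comparison. Its brighter probe read 4.50, 4.53 and 4.35 in 5 h livers with stem cells, against 4.58, 4.15 and 3.37 without. At 2 h it read 4.77, 4.85 and 3.87 with stem cells, against 4.19, 4.16 and 3.75 without. The liver groups overlapped at both times on this probe. The other probe read 4.41, 4.46 and 4.29 at 5 h with stem cells, against 4.14, 3.85 and 3.29 without. There the 5 h groups did not overlap, with a difference of 0.63, and of 0.28, 0.43 and 1.18 within slides 1, 2 and 3. In inflammatory cells the brighter probe read 3.64 and 3.76 with stem cells, against 4.53 and 4.58 without. These did not overlap, with a difference of -0.85 ± 0.34 (limma adjusted p = 0.268) and of -0.75 on the other probe.

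Gadd45g, known as a cytokine-induced member of the family, was far above the 75th percentile in most livers. It read 8.43, 8.15 and 8.01 in 5 h livers with stem cells, against 8.60, 8.27 and 8.11 without. At 2 h it read 7.84, 7.68 and 4.78 with stem cells, against 7.97, 8.13 and 4.85 without. The lowest value of each 2 h group is that of liver 10 or 13, and stem cell groups overlapped the others at both times. The time difference was 1.43 ± 0.92 with stem cells (limma adjusted p = 0.317) and 1.34 ± 0.92 without (limma adjusted p = 0.348). Neither passed. Without livers 10 and 13, which were set apart by Gadd45g among others, the differences were 0.44 and 0.27 (limma adjusted p = 0.142 and 0.362).

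In inflammatory cells Gadd45g read 4.53 and 5.35 with stem cells, against 6.99 and 6.94 without. The values with stem cells were lower with no overlap, and the difference of -2.03 ± 0.41 (4.07-fold) did not pass (limma adjusted p = 0.150). It passed after normexp background correction (-2.32, limma adjusted p = 0.000281), a setting under which 971 genes passed in these cells in place of 2. Leaving out sample 985, it passed (-2.05, limma adjusted p = 0.0378), but that leaves 1 sample without stem cells, assumed to vary like the pair with them. Over leaving out each of the 4 samples the adjusted p ran from 0.0378 to 0.705 (limma). Against livers with stem cells, inflammatory cells were lower, with a difference of -3.26 ± 0.95 (9.55-fold, limma adjusted p = 0.00903). Without sample 987, which leaves 1 sample assumed to vary like the other groups, this call was lost (-2.85, limma adjusted p = 0.0707). In mice without stem cells the same difference was -1.36 ± 0.95 (limma adjusted p = 0.234). These groups did not overlap, at 6.94 to 6.99 in inflammatory cells against 8.11 to 8.60 in livers. The standard error draws on all 6 groups, among them the 2 h livers, with SDs of 1.72 with stem cells and 1.85 without.

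Cell type markers also differed between the samples of inflammatory cells. Neutrophil markers summed to 9.27 to 9.38 with stem cells, against 7.15 to 7.75 without, and macrophage and monocyte markers to 6.93 to 7.27, against 4.99 to 6.12. Leukocyte markers summed to 8.07 to 8.16, against 7.68 to 7.86, and endothelial markers to 3.52 to 3.55, against 2.34 to 3.18. These 4 of 10 marker lists did not overlap, and the other 6 did, T cell markers among them. Of the 9 neutrophil, 8 macrophage, 5 leukocyte and 7 endothelial markers limma called 0, and the part of these cells in the gene values was not tested.

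Cdkn1a, the gene of the cyclin-dependent kinase inhibitor p21, was higher at 5 h than at 2 h in livers with stem cells, where the schedule of the cells differed too. It read 4.05, 3.66 and 3.45 at 5 h, against 1.17, 0.56 and -1.36 at 2 h. The groups did not overlap, and the rise was 3.60 ± 0.88 (12.1-fold, limma adjusted p = 0.0196). In livers without stem cells it read 4.35, 2.63 and 3.03 at 5 h, against 1.70, 1.42 and -1.53 at 2 h. These did not overlap either, and the difference of 2.81 ± 0.88 (6.99-fold) did not pass (limma adjusted p = 0.0548). The 10 spots of its probe differed on an array by a median SD of 0.0489.

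The call for Cdkn1a depended on single livers. With stem cells it was lost without liver 1, 2, 3 or 10, at limma adjusted p = 0.0579, 0.0581, 0.0525 and 0.0738 and differences of 3.43, 3.62, 3.73 and 2.86. Without both livers 10 and 13 it passed with stem cells (2.86, limma adjusted p = 0.00341) and without (1.78, limma adjusted p = 0.0384). Those 2 livers were set apart above by Cdkn1a itself, among other members, so the p-values without them are not an independent test. Leaving out liver 11 alone, Cdkn1a passed in livers without stem cells (3.39, limma adjusted p = 0.0389).

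Between livers with and without stem cells, Cdkn1a overlapped at both times. The difference at 2 h was -0.41 ± 0.88 (limma adjusted p = 0.925), and at 5 h it was 0.39 ± 0.88. In inflammatory cells it read 1.77 and 1.86 with stem cells, against 2.93 and 2.89 without. The values with stem cells were lower with no overlap, and the difference of -1.10 ± 0.34 did not pass (limma adjusted p = 0.202). It passed after normexp correction (-1.26, limma adjusted p = 0.0302), a setting under which 971 genes passed in these cells in place of 2.

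**Figure D4:**
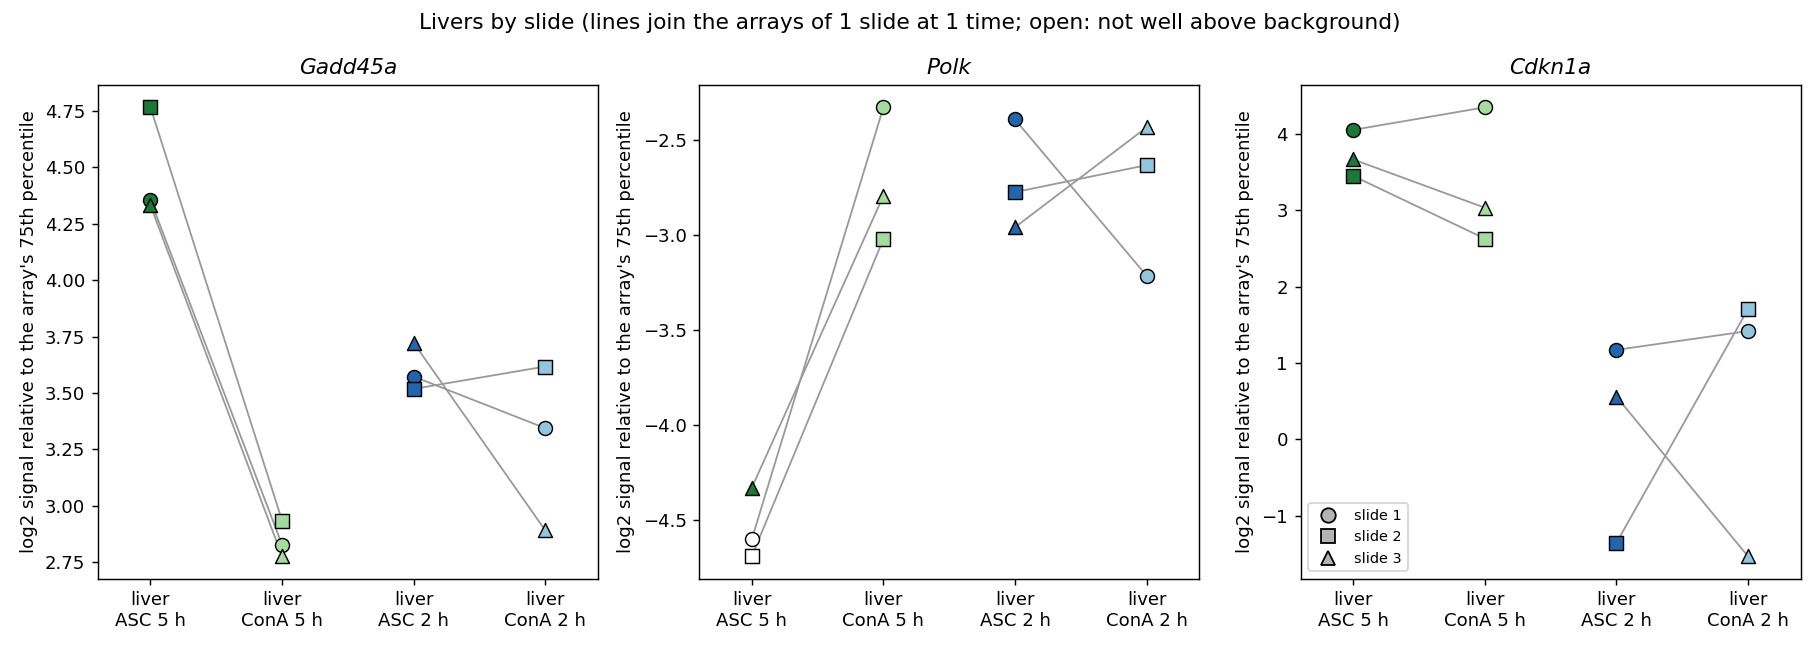
Log2 signal on the scale of the 75th percentile (y axis) in the 12 livers for Gadd45a, Polk and Cdkn1a, with marker shapes for slides 1, 2 and 3 and lines joining the stem cell and concanavalin A arrays of 1 slide at 1 time. At 5 h the stem cell array is the higher of each pair for Gadd45a and the lower of each pair for Polk, while at 2 h the pairs run both ways.

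Mdm2, the ubiquitin ligase that removes p53, passed in no tested comparison. It read 0.64, 1.01 and 0.84 in 5 h livers with stem cells, against 1.06, 0.97 and 1.00 without. At 2 h it read 0.33, 0.48 and 0.06 with stem cells, against 0.82, 0.78 and 0.17 without. Each 5 h group lay above its 2 h group with no overlap, by 0.54 ± 0.19 with stem cells (limma adjusted p = 0.0776) and 0.42 ± 0.19 without (limma adjusted p = 0.160). On the other Mdm2 probe, printed 10 times on the array, the groups overlapped, and the differences were 0.67 and 0.54. In inflammatory cells Mdm2 read 1.33 and 1.01 with stem cells, against 1.09 and 0.93 without, which overlapped.

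Ccng1, the gene of cyclin G1, which recruits a phosphatase to Mdm2, passed in no tested comparison on its brighter probe. That probe read 0.51, 0.13 and 0.46 in 5 h livers with stem cells, against 0.40, 0.41 and 0.31 without. At 2 h it read 0.70, 0.62 and 1.07 with stem cells, against 0.53, 0.55 and 0.74 without. Its time difference was -0.43 ± 0.16 with stem cells (limma adjusted p = 0.0819) and -0.24 ± 0.16 without (limma adjusted p = 0.325). The 2 probes did not give the same result. In 5 h livers stem cells gave 0.00 on the brighter probe and -0.53 on the other, where the groups did not overlap. That other probe passed, with adjustment over all probes, between the times with stem cells (-0.70, limma adjusted p = 0.0497) and in inflammatory cells against livers with stem cells (0.88, limma adjusted p = 0.0167).

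Btg2, an antiproliferative gene whose protein acts with the CCR4-NOT deadenylase, passed in no tested comparison on its brightest probe. It read 4.09, 4.94 and 4.98 in 5 h livers with stem cells, against 5.65, 4.87 and 4.86 without. At 2 h it read 3.80, 3.65 and 2.69 with stem cells, against 4.99, 3.53 and 2.58 without. Values were mostly higher at 5 h, with a time difference of 1.29 ± 0.55 with stem cells (limma adjusted p = 0.132) and 1.43 ± 0.55 without (limma adjusted p = 0.106). Without liver 11 the second of these passed (2.07, limma adjusted p = 0.0180). In inflammatory cells it read 4.88 and 3.86 with stem cells, against 3.86 and 3.96 without. Against livers without stem cells, inflammatory cells gave -1.22 ± 0.60 on this probe (limma adjusted p = 0.0951) and -1.69 on another, which passed with adjustment over all probes (limma adjusted p = 0.0367).

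Trp53inp1, a p53-induced gene linked to autophagy and cell death, was lower in inflammatory cells than in livers. Its brighter liver probe read 2.35 and 1.89 in inflammatory cells with stem cells, against 3.48, 3.86 and 3.33 in livers. In mice without stem cells it read 1.38 and 1.77 in inflammatory cells, against 3.14, 3.44 and 2.75 in livers. Neither pair of groups overlapped, and the differences were -1.44 ± 0.48 with stem cells (limma adjusted p = 0.0196) and -1.54 ± 0.48 without (limma adjusted p = 0.0143). The first was lost without liver 2 (limma adjusted p = 0.0573) or sample 989 (0.125), and the second without sample 983 (0.0928).

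At 2 h Trp53inp1 read 4.80, 4.41 and 3.48 with stem cells, against 4.17, 3.94 and 2.43 without, which overlapped. Its time difference was -0.68 ± 0.46 with stem cells (limma adjusted p = 0.341) and -0.40 ± 0.46 without (limma adjusted p = 0.584). Without livers 10 and 13 both passed, at -1.05 with stem cells (limma adjusted p = 0.0180) and -0.94 without (limma adjusted p = 0.0397). Those livers were set apart above by other members, and here they hold the lowest value of each 2 h group. The p-values without them are therefore not an independent test.

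Bbc3, the gene of the BH3-only protein PUMA, which starts apoptosis, had the largest SD of the members in a group, 2.04 in 2 h livers without stem cells. It read -0.18, 0.22 and 0.18 in 5 h livers with stem cells, against 1.25, -0.34 and -0.60 without. At 2 h it read 0.52, 0.56 and 2.36 with stem cells, against -0.31, -0.79 and 2.96 without. The stem cell groups overlapped the others at both times. The time difference was -1.07 ± 0.91 with stem cells (limma adjusted p = 0.459), where the groups did not overlap. It was -0.51 ± 0.91 without (limma adjusted p = 0.734), where they did, and neither passed. In inflammatory cells Bbc3 read 2.54 and 2.35 with stem cells, against 2.03 and 1.42 without. Inflammatory cells were higher than livers with stem cells, by 2.37 ± 0.93 (limma adjusted p = 0.0400). Leaving out any 1 of the 5 samples compared lost this call, with limma adjusted p from 0.0633 to 0.137. In mice without stem cells the difference was 1.62 ± 0.93 (limma adjusted p = 0.151). There the groups did not overlap, and the standard error draws on all 6 groups, among them the 2 h livers with the SD of 2.04.

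Polk, the gene of DNA polymerase kappa, which copies past damaged bases, was lower in 5 h livers with stem cells than in those without. Its probe lies on chromosome 13 (97581996 to 97582055, minus strand, mm8). It read -4.60, -4.33 and -4.69 with stem cells, against -2.33, -3.02 and -2.79 without. The groups did not overlap, and the difference was -1.83 ± 0.25. Within slides 1, 2 and 3 it was -2.27, -1.67 and -1.54. The signal was dim, being well above background in 1 of 3 livers with stem cells and 3 of 3 without. After normexp correction, which adds an offset of 50, the difference was -0.32, and the cause of this change was not tested.

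Polk was lower at 5 h than at 2 h in livers with stem cells. The 2 h livers read -2.39, -2.96 and -2.77, above all 3 of the 5 h livers, and the difference was -1.83 ± 0.25, or -0.77 after normexp correction. It was not tested, since the 5 h livers chose the gene, and its size is uncertain, with 1 of those 3 livers well above background. Without stem cells the 2 h livers read -2.63, -3.21 and -2.43, which overlapped the 5 h livers, with a difference of 0.05 ± 0.25. Immediate stem cells at 2 h gave 0.05 ± 0.25 (limma adjusted p = 0.969).

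In inflammatory cells Polk read -3.10 and -2.91 with stem cells, against -2.75 and -2.62 without. The difference of -0.32 ± 0.34 did not pass (limma adjusted p = 0.642). Inflammatory cells were higher than the same dim livers with stem cells, by 1.54 ± 0.27, and after normexp correction by 0.62. In mice without stem cells the difference was 0.03 ± 0.27. Neither was tested. A second Polk probe, whose listed position spans 4736 bases, was not well above background on any liver array and gave no check there. In inflammatory cells it was well above background in 2 of 2 samples with stem cells and 1 of 2 without. There stem cells gave 0.55 on it, opposite in sign to the first probe, and it did not pass with adjustment over all probes (limma adjusted p = 0.554).

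Some marker sums did not overlap between the 5 h livers. Endothelial markers summed to 4.96 to 5.43 with stem cells, against 4.31 to 4.83 without, and B cell markers to 1.15 to 1.24, against 0.718 to 0.907. Neutrophil markers overlapped, at 7.57 to 7.92 with stem cells and 7.16 to 7.68 without. Between the times, 6 of 10 marker lists did not overlap with stem cells and 4 did not without. Neutrophil markers were higher at 5 h. With stem cells they summed to 7.57 to 7.92 at 5 h, against 5.16 to 6.66 at 2 h, and without stem cells to 7.16 to 7.68 at 5 h, against 3.88 to 6.38 at 2 h. Endothelial markers were lower at 5 h, with sums of 4.96 to 5.43 at 5 h, against 5.62 to 5.91 at 2 h, with stem cells and 4.31 to 4.83, against 5.39 to 5.80, without. Of 7 endothelial markers limma called 2 lower with stem cells and 4 without. B cell markers were lower too, with 1.15 to 1.24 at 5 h, against 1.97 to 2.54 at 2 h, with stem cells and 0.718 to 0.907, against 1.55 to 2.51, without. The sums of leukocyte and of mesenchymal markers were higher at 5 h with stem cells, and that of NK cell markers without. Gene by gene, limma called 0 of 8 mesenchymal markers higher and 3 lower with stem cells, with a median of -0.04. It called 1 of 5 leukocyte markers higher with stem cells and 1 of 4 NK cell markers higher without. Erythroid markers with stem cells summed to 7.82 to 8.14 at 5 h, against 6.13 to 6.56 at 2 h. Without stem cells they summed to 7.65 to 7.97 at 5 h and 7.36 to 7.88 at 2 h, so the 2 h livers with stem cells were the low group. At 2 h leukocyte markers were also lower with stem cells, at 2.59 to 2.72, against 2.76 to 2.93 without. The other 8 marker lists overlapped between the 2 h livers with and without stem cells. The part of these cells in the gene values was not tested.

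Over the 12 livers, the genes whose values ran most like those of Gadd45a, by Pearson r among 14649 genes, were Gpat3 (0.873), Dek (0.855), Gimap5 (0.847), Tmcc2 (0.845) and Sgms2 (0.843). For Polk they were Tmem41b (0.916), Amz1 (0.908), Btbd7 (0.904), Hirip3 (0.902) and Cbx8 (0.900). The values share arrays, scaling and the group differences, and r describes these livers only.

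Of 40 other p53 targets listed, 36 were measured in the livers. Between 5 h and 2 h, 8.76% of all genes rose and 9.78% fell with stem cells, and 6.46% rose and 9.22% fell without, against which the lists that follow are read. Between 5 h and 2 h with stem cells, 5 rose and 4 fell, with a median of -0.12, against -0.08 over all genes. The largest rises were those of Apaf1, the apoptosome scaffold (3.27 ± 0.67, limma adjusted p = 0.00978), Fas, the death receptor (2.03 ± 0.53, limma adjusted p = 0.0259), and Pml, the scaffold of nuclear bodies (1.55 ± 0.21, limma adjusted p = 0.00174). Other Apaf1 probes gave 2.14 and 3.53. The size of the Apaf1 rise is uncertain, since at 2 h its probe was dim, with a mean of -3.97 and 2 of 3 livers well above background. The largest fall was that of Tob1, an antiproliferative relative of Btg2 (-4.83 ± 0.68, limma adjusted p = 0.00196). Without stem cells 3 of 36 rose and 4 fell, with a median of -0.13, against -0.07 over all genes. Pml rose there too (1.12 ± 0.21, limma adjusted p = 0.00949), as did the nuclease gene Aen (1.06 ± 0.26, limma adjusted p = 0.0247), and Tob1 fell (-2.67 ± 0.68, limma adjusted p = 0.0280), as did the damage-recognition gene Ddb2 (-0.85 ± 0.16, limma adjusted p = 0.00836).

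Between mice with and without stem cells, limma called 0 of the listed p53 targets. At 2 h 4 of 36 had an unadjusted p under 0.05, with a median of 0.18, against 0.08 over all genes. At 5 h 7 of 36 did, with a median of -0.01, against 0.08. In inflammatory cells 5 of 38 did, with a median of 0.24, against 0.09. Over all genes, 827 of 14650 had such a p at 2 h, 1817 of 14650 at 5 h and 2558 of 14253 in inflammatory cells. The other lists below had 0 limma calls in these 3 comparisons as well, with 0 to 9 genes per list at an unadjusted p under 0.05.

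Among 11 measured regulators of p53, Mdm4, the relative of Mdm2 that blocks p53, rose between the times, by 1.22 ± 0.31 with stem cells (limma adjusted p = 0.0216) and 1.15 ± 0.31 without (limma adjusted p = 0.0325). Its 3 other probes gave 0.41, 0.51 and 0.62 with stem cells and 0.31, 0.57 and 0.68 without. It was the 1 call with stem cells. Without them the kinase gene Hipk2 also fell (-0.54 ± 0.13, limma adjusted p = 0.0246), while its 3 other probes gave -0.38, -0.31 and 0.23. Of 26 genes of the Gadd45 pathway and its inducers, 2 rose and 4 fell with stem cells, and 2 rose and 3 fell without. Map2k4, a kinase upstream of JNK, rose by 0.69 ± 0.17 with stem cells and 0.61 ± 0.17 without. Map2k6, a kinase upstream of p38, fell in both, at -2.82 ± 0.61 with stem cells and -3.11 ± 0.61 without. The size without stem cells is uncertain, with 1 of 3 livers at 5 h well above background. Its other probes, too dim to be kept, gave -0.89 and -0.34 with stem cells and 0.77 and -0.31 without.

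Of 12 genes of translesion synthesis and repair polymerases, the functional group of Polk, 0 rose and 2 fell between the times with stem cells, near the share over all genes. These were Rev1 (-0.91 ± 0.24, limma adjusted p = 0.0281) and Rev3l (-0.90 ± 0.23, limma adjusted p = 0.0233), which act in the same bypass pathway. Without stem cells limma called 0 of 12, and 3 had an unadjusted p under 0.05, against 4737 of 14650 genes. In a list of BTG, Tob and CCR4-NOT genes, 1 of 5 measured genes passed. This was Btg3, which rose by 1.14 ± 0.18 with stem cells and 1.29 ± 0.18 without. Tob1, which fell in both, is not in this list and was counted above among the p53 targets. Of 13 genes around the cyclin-dependent kinases, Cdk6 rose by 1.28 ± 0.17 with stem cells and 0.94 ± 0.17 without, where its other probes gave 1.03 and 1.61. In that list 1 gene fell in each, the inhibitor gene Cdkn1b with stem cells (-1.25 ± 0.34) and its relative Cdkn1c without (-1.06 ± 0.27).

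Of 11 measured BCL2 family genes, the relatives of Bbc3, 2 rose and 4 fell between the times with stem cells, and 2 rose and 2 fell without. Bcl2l1, which opposes apoptosis, rose by 1.33 ± 0.34 with stem cells and 1.33 ± 0.34 without. Bak1, which carries apoptosis out, rose on 1 of 2 probes, by 1.22 ± 0.16 with stem cells and 1.07 ± 0.16 without, while the other probe gave -0.17 and -0.01. Bik, a BH3-only gene like Bbc3, fell, at -1.34 ± 0.41 with stem cells and -2.16 ± 0.41 without.

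Inflammatory cells and livers differed in many listed genes, as over all genes, of which 28.3% were higher and 35.5% lower with stem cells, and 29.3% higher and 31.7% lower without. Of 39 other p53 targets, 15 were higher and 13 lower in inflammatory cells with stem cells, and 11 higher and 13 lower without. Pmaip1, the gene of the BH3-only protein NOXA, was higher, by 5.11 ± 0.33 with stem cells and 4.17 ± 0.33 without. Perp, a gene of apoptosis and cell junctions, was lower, at -5.04 ± 0.26 with stem cells and -5.37 ± 0.26 without, and so was the stress cytokine gene Gdf15, at -5.64 ± 1.00 and -4.66 ± 1.00. Of 13 polymerase genes 4 were higher and 1 lower with stem cells, and 7 higher and 1 lower without. Rev1 was higher, by 2.39 ± 0.27 with stem cells and 1.88 ± 0.27 without, and its other probe gave 0.90 and 1.44.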

How the data were processed

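RNA of 16 samples was measured on Agilent 1-colour mouse arrays. The deposited scanner files hold spot intensity on a linear scale, background-subtracted and without normalization between arrays, per the file headers. The labels' processing notes name Agilent Feature Extraction 10.5.1.1. The value table of the series, also deposited, has equal intensity values.

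Here the log2 intensity minus that of the 75th percentile of each array was used, with no pseudocount. Outlier spots were dropped and spots of a probe averaged. Kept probes were well above background on at least 3 of 12 liver arrays, 2 of 4 arrays of inflammatory cells, or 2 of 16 when both were fitted, and the brightest kept probe stood for its gene (14650, 14253 and 16314 genes). limma 3.58.1 (R 4.3.3) fitted the group means, so a gene's standard error draws on every group in its fit, not only the 2 compared. The p-values were adjusted by Benjamini-Hochberg over every gene tested. The code was tested on simulated data. Members and lists were chosen with earlier results of these data known. All members are named. From the other lists only genes past the threshold are named, from at most the 3 largest rises and 3 largest falls per list and comparison, and for Gadd45a and Polk the 5 genes most alike by Pearson r. Alternatives changed the background correction, scaling, filter, probe rule, slide, arrays fitted, array weights and samples.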

Additional observations from a re-analysis of the deposited data

How the results depend on the processing

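For 5 h against 2 h without stem cells, 0 of the 10 genes passed under the settings used, where 2296 of all genes did. Under scaling to each array's median 1 passed, where 1646 of all genes did, and 1 under a stricter filter on dim probes, where 2491 did. Under array weights 2 passed, where 3184 of all genes did, and 3 on leaving out livers 10 and 13, where 1927 did. Those 2 livers were set apart by values of these same genes, so the last count is not an independent test. For 5 h against 2 h with stem cells, 3 of the 10 genes passed under the settings used, where 2716 of all genes did. Under array weights 6 passed, where 4501 of all genes did. Gadd45a and Polk are among the 3 but are no tests, since the 5 h livers chose them, and 1 of the other 8 passed. For stem cells in inflammatory cells, 0 of the 10 genes passed under the settings used, and 2 under normexp background correction. For inflammatory cells against livers without stem cells, 2 of the 10 genes passed under the settings used, where 9944 of all genes did. Under a fit of only the 2 groups compared 4 passed, where 9086 of all genes did, and under array weights 1, where 8286 did. Gadd45a, chosen by the 5 h livers, is among the first 2, and 1 of the other 8 passed. Polk for stem cells in 5 h livers was -1.83, and -0.32 under normexp correction, which adds an offset of 50. The cause of these changes was not tested. Leaving out each sample in turn, the count was 0 to 0 for stem cells in 2 h livers, 0 to 2 for 5 h against 2 h without stem cells, 1 to 3 for 5 h against 2 h with stem cells, 0 to 1 for stem cells in inflammatory cells, 1 to 2 for inflammatory cells against livers without stem cells and 3 to 4 for inflammatory cells against livers with stem cells. In the same way Gadd45a for stem cells in 5 h livers ran from 1.50 to 1.71. In the same way Polk for stem cells in 5 h livers ran from -1.98 to -1.63. These counts include Gadd45a and Polk, which the 5 h livers chose, and where 1 sample was left in a group it was assumed to vary like the others. Of 70 differences (10 genes in 7 comparisons), 46 kept their sign under all settings and 24 did not. For stem cells in 5 h livers the sign turned under array weights in Ccng1 (0.043) and Bbc3 (0.24), and on leaving out 1 sample, with ranges of -0.38 to 0.54 for Bbc3, -0.073 to 0.11 for Ccng1 and -0.25 to 0.0022 for Gadd45g. The sign turned for stem cells in 2 h livers in Gadd45a (-0.11 under normexp background correction) and Polk (-0.017 under quantile normalization, -0.035 under scaling to each array's median). The sign turned for 5 h against 2 h without stem cells in Gadd45b (-0.11 under quantile normalization, -0.16 under the mean of a gene's probes, -0.32 under array weights, -0.14 under leaving out livers 10 and 13) and Bbc3 (0.24 under array weights, 0.66 under leaving out livers 10 and 13). The sign turned for 5 h against 2 h with stem cells in Gadd45b (0.35 under normexp background correction, 0.021 under scaling to each array's median). The sign turned for stem cells in inflammatory cells in Ccng1 (-0.020 under normexp background correction, -0.17 under scaling to each array's median, -0.017 under the mean of a gene's probes), Polk (0.43 under normexp background correction, 0.12 under the mean of a gene's probes) and Mdm2 (-0.052 under scaling to each array's median). The sign turned for inflammatory cells against livers without stem cells in Polk (-0.13 under normexp background correction) and Mdm2 (0.070 under quantile normalization, 0.23 under the mean of a gene's probes, 0.0033 under array weights). The sign turned for inflammatory cells against livers with stem cells in Gadd45b (0.15 under quantile normalization) and Btg2 (0.69 under quantile normalization). Leaving out 1 sample turned signs for stem cells in 2 h livers, with ranges of -0.18 to 0.21 for Polk, -1.29 to 0.77 for Gadd45g, -1.44 to 0.34 for Cdkn1a, -0.88 to 0.32 for Btg2 and -0.18 to 1.70 for Bbc3. Leaving out 1 sample turned signs for 5 h against 2 h without stem cells, with ranges of -0.18 to 0.21 for Polk, -0.27 to 0.33 for Gadd45b and -1.22 to 0.66 for Bbc3. Leaving out 1 sample turned signs for 5 h against 2 h with stem cells, with ranges of -0.35 to 0.14 for Gadd45b. Leaving out 1 sample turned signs for stem cells in inflammatory cells, with ranges of -0.0048 to 0.32 for Mdm2, -0.052 to 0.97 for Btg2 and -0.52 to 0.60 for Ccng1. Leaving out 1 sample turned signs for inflammatory cells against livers without stem cells, with ranges of -0.78 to 0.078 for Cdkn1a, -0.076 to 0.076 for Mdm2, -0.12 to 0.22 for Polk and -0.55 to 0.58 for Ccng1. Leaving out 1 sample turned signs for inflammatory cells against livers with stem cells, with ranges of -0.061 to 0.18 for Ccng1 and -0.81 to 0.21 for Btg2. Scaling also moved all genes: their median was -0.23 for inflammatory cells against livers with stem cells, 0.19 under normexp and -0.05 under quantile normalization, and 0.09, 0.23 under normexp and -0.12 under median scaling for stem cells in inflammatory cells. The share of higher calls was 41.2% for 5 h against 2 h without stem cells and 58.4% under median scaling, 47.2% with stem cells and 68.8% under normexp, 60% for stem cells in 5 h livers and 27.3% under median scaling, and 0% in inflammatory cells and 26% under normexp. Over all genes, calls for stem cells in 2 h livers numbered 4, 0 under normexp, 300 with array weights and 455 without livers 10 and 13, and in 5 h livers 5, 0, 141 and 48. Under normexp the calls were 286 in place of 2296 (5 h against 2 h without stem cells), 824 in place of 2716 (with), 971 in place of 2 (stem cells in inflammatory cells) and 6727 in place of 10410 (inflammatory cells against livers with stem cells). The groups share no replicate numbers, and the fits behind the p-values above were unpaired. Liver arrays were matched by slide only in the within-slide differences and in the alternative with slide as a block. Slide as a block, and the authors' value table, changed none of the counts of members called. With 2 or 3 samples per group, small differences could not be shown, and dim probes such as that of Polk limit what the signal over background can show.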
